A study of Drosophila montana with 9 samples.

Results

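The genes described here are 5 genes of RNA binding and RNA processing on a candidate gene microarray for *D. montana*: *nonA*, *Fmr1*, *lark*, *Adar* and *Prp5*. They were found by the gene name given to each probe and hold 14 of the 204 probes for the 101 candidate genes and 7 control genes tested, which are all the genes counted below. Expression was measured in whole bodies of females with 3 one-colour arrays per group and 13 females per sample. Diapausing females were 14 days old, from a cycle of 16 h light to 8 h dark at 16°C. Reproducing females were of the same age and temperature in continuous light. Young females were 1 day old and came straight from the culture in continuous light at 19°C. All flies were of 1 isofemale line from northern Finland (O3F66), so that no other genotype was sampled. Young and reproducing females differed in age, temperature and reproductive state together, and these cannot be told apart. Likewise, diapausing and reproducing females differed in light regime and reproductive state together. Diapausing and young females differed in age, temperature, light regime and reproductive state together.

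RNA-binding proteins act on transcripts after they are made, in splicing, editing, localization and translation. Several of them were found in *D. melanogaster* through behaviour. NonA is a nuclear RNA-binding protein of a family with members in mammals, and its mutants have altered visual responses and courtship song. Fmr1, the fly relative of the human fragile X protein, represses the translation of bound mRNAs in neurons. Lark carries RNA recognition motifs and takes part in the circadian timing of adult emergence. Adar is the enzyme that turns adenosine into inosine in mRNAs, many of them for ion channels and synaptic proteins. Prp5 is an RNA helicase known from yeast to act in the assembly of the spliceosome.

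Each probe was a single-stranded DNA of 60 bases and was spotted once per array. The probes named -a, -b and so on below are numbered within a gene. The probes of *lark* and the brighter probe of *Adar* are shown because they gave the strongest signals of the 5 genes, and they are in lower case throughout.
lark-a: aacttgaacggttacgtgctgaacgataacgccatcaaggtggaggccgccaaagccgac
lark-b: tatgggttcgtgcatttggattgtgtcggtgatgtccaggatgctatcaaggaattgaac
Adar-a: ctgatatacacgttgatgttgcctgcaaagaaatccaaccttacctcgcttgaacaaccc
Adar-b, the other probe of *Adar*, is given because it was well above background on 0 of 9 arrays.
Adar-b: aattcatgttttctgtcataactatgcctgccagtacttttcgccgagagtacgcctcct

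A pair of probes for *Prp5* lay so close that they shared 38 bases, in capitals here, so they are not independent measurements.
Prp5-a: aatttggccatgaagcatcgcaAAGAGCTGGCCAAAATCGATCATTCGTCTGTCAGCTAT
Prp5-b: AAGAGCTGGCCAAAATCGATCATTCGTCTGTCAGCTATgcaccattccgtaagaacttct
Fmr1-b and Fmr1-c overlapped likewise, in 52 bases. The other probe pairs of a gene shared no end of 12 or more bases.

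The probes nonA-b and Fmr1-c are shown with every TAA, TAG and TGA in capitals. Read as written, both had a stop codon in each reading frame (0 open frames), and their reverse complements had 1 open frame each.
nonA-b: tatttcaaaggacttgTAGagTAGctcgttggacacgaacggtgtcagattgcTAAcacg
Fmr1-c: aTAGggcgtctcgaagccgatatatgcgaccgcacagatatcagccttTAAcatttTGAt
The other 12 probes had at least 1 open frame as written and at least 1 on the reverse complement, so that a probe's own frames do not tell its strand. Among these Fmr1-b overlaps Fmr1-c, and the 68 bases that both span had 0 open frames as written and 1 on the reverse complement. Of the 204 probes, 9 were open only on the reverse complement, of which 3 were well above background on all 9 arrays and 6 on some arrays. A further 12 probes were open only as written, of which 8 were well above background on all 9 arrays and 4 on none. The remaining 183 were open on both strands, of which 98 were well above background on all 9 arrays, 50 on some and 35 on none. The strand of a probe decides whether it can bind the labelled cRNA, which is complementary to mRNA, and its part in the low signals of *nonA* and *Fmr1* was not tested.

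Among the 5 genes, only *lark* gave strong signals on every array. Feature Extraction marks a spot as well above background from its signal against the local background and the noise. By this mark lark-a, lark-b, Adar-a, Prp5-c and Prp5-d were detected on 9 of 9 arrays. Prp5-b was detected on 7 arrays, Prp5-a and nonA-a on 4, and nonA-b on 2. The probes nonA-c, Fmr1-b and Fmr1-c were detected on 1 array each, and Fmr1-a and Adar-b on 0. The mean signal of lark-a was 7.44 to 42.5 times the mean of the 77 negative control spots of its array, and that of Adar-a 1.63 to 5.30 times. For Fmr1-a the range was 1.03 to 1.29 times. Signals of different probes are given only against background, since probes differ in how strongly they bind.

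**Figure D1:**
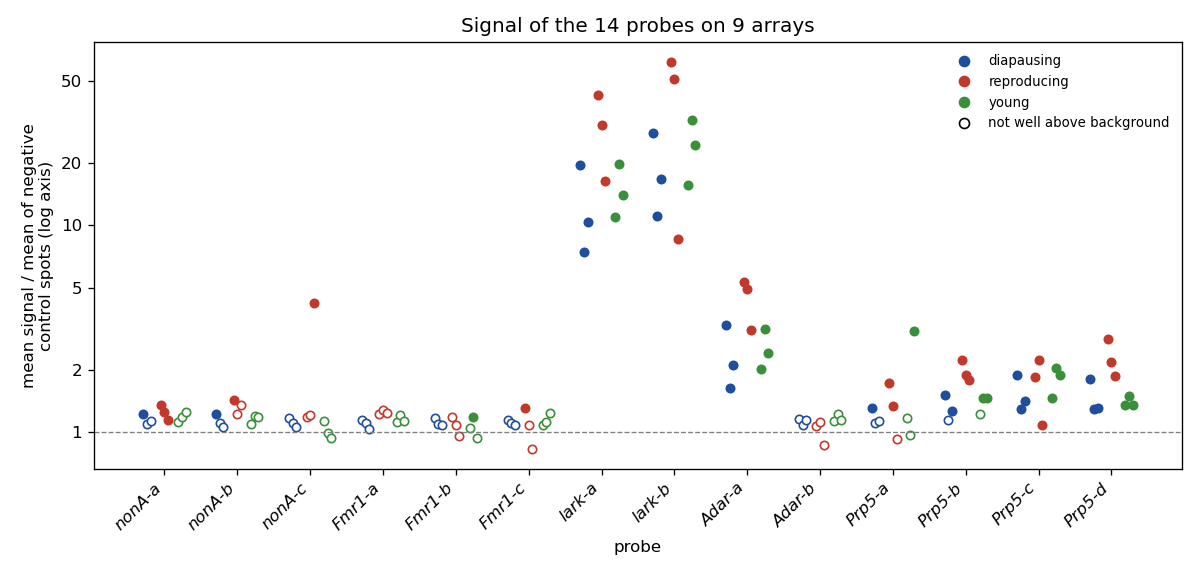
Mean signal of each of the 14 probes divided by the mean of the negative control spots on the same array (log axis), with 1 point per array, coloured by group. Filled points are well above background. The probes of lark lie between 7.44 and 61.7 times the negative controls, and the probes of Fmr1 between 0.83 and 1.31 times.

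The arrays differed in quality and in their overall level. Between 123 and 153 of the 204 probes were well above background per array, and the SD of the negative control spots was 2.20 to 12.7 on 8 arrays. It was 20.4 on the array of reproducing replicate 40, where 565 of 772 features were found, against 588 to 769 elsewhere. The spots of nonA-a, Fmr1-b, Fmr1-c and Adar-b were not found on that array, and their values were kept. Of these, nonA-a was marked well above background there. The log2 values of the deposited table correlated with the scanner output at r = 0.913 across probes on that array and at 0.998 or more on the others. The median normalized value of all genes also varied within groups. It was 7.02 on diapausing replicate 27, against 5.76 and 5.98 on replicates 42 and 43. In reproducing females it was 6.95, 6.86 and 5.82 on replicates 22, 23 and 40, and in young females it lay between 6.55 and 7.09. Heads were represented, since *ninaE*, *Arr1* and *Arr2* of the photoreceptors were well above background on 9 of 9 arrays, *trp* and *inaC* on 4 each. Of the neuronal genes *Sh* was on 7 arrays, and *para* and *syt* on 0.

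*lark* had the largest differences in fitted level between diapausing and reproducing females among the 5 genes, but also the largest spread. The mean signal of lark-a, before normalization, was 2876, 1932 and 943 in reproducing replicates 22, 23 and 40. It was 1339, 506 and 694 in diapausing replicates 27, 42 and 43, and 707, 1072 and 836 in young replicates 12, 16 and 17. Reproducing replicates 22 and 23 stood above all other arrays, and replicate 40 lay within the range of the other groups. The normalized log2 level of the gene, the mean of both probes, was 11.67, 11.21 and 9.12 in reproducing replicates 22, 23 and 40. In diapausing replicates 27, 42 and 43 it was 10.93, 8.88 and 9.44. Young replicates 12, 16 and 17 were at 9.79, 10.60 and 10.23, so that all groups overlapped. The level was 9.75 ± 1.06 in diapausing, 10.66 ± 1.36 in reproducing and 10.21 ± 0.41 in young females (SD, n = 3).

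The probes of *lark* disagreed on 1 array. The ratio of the signal of lark-b to that of lark-a was 1.42 to 1.74 on 8 arrays and 0.53 on reproducing replicate 40. In the deposited table the same ratio was 1.27 to 1.54 on all 9 arrays, with 1.44 on replicate 40. The scanner output and the table thus give different values for lark-b on that array, 498 as mean signal there against a table value of 5818, while on reproducing replicate 23 the pair was 3213 and 6448.

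**Figure D2:**
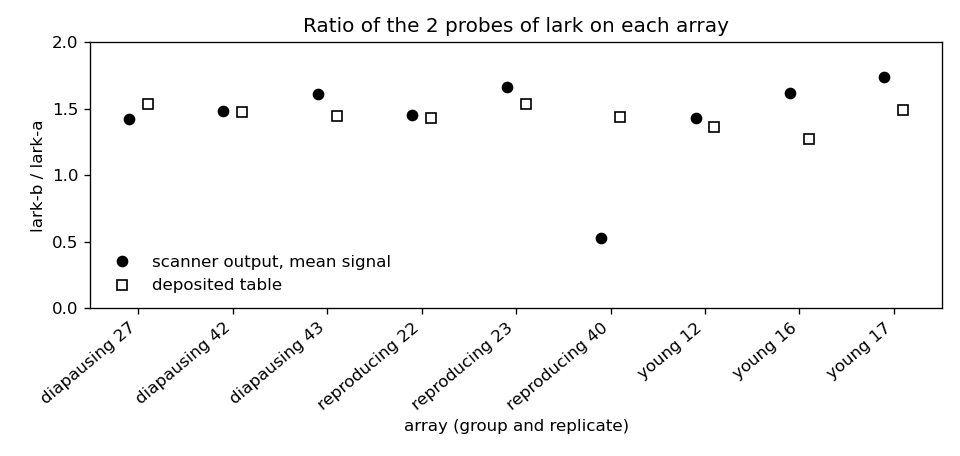
Ratio of the signals of the 2 probes of lark (lark-b over lark-a) on each of the 9 arrays, from the mean signal of the scanner output (filled circles) and from the deposited table (open squares). The filled circle of reproducing replicate 40 lies at 0.53, and all other points lie between 1.27 and 1.74.

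The first comparison asked which genes differed between diapausing and reproducing females of the same age. limma, fitted over the 9 arrays with Benjamini-Hochberg adjustment, called 0 of the 5 genes (adjusted p under 0.05 with over 2-fold change), against 1 gene in all (0.926% of those tested). At an unadjusted p under 0.05 the counts were 0 of 5 and 9 in all (8.33%). All 5 genes had a fitted level below that of reproducing females, as did 51.9% of all genes, and for none of the 5 were the groups free of overlap (10.2% of all genes). The median log2 fold change was -0.60 over the 5 genes and -0.02 over all genes. In whole bodies, fewer cells of a type and less RNA per cell cannot be told apart.

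The log2 fold change of *lark* was -0.92 (SE 0.72, 95% confidence interval -2.57 to 0.74, limma adjusted p = 0.632). Within the slides, each of which held 1 array of every group, the difference was -0.74, -2.33 and 0.32. Without reproducing replicate 40 the log2 fold change was -1.69 (adjusted p = 0.333), and with lark-a alone it was -1.17 (adjusted p = 0.608). Other single arrays moved it the other way, to -0.37 without reproducing replicate 22 and to -0.45 without diapausing replicate 42. *nonA* differed by -0.60 (SE 0.31, adjusted p = 0.626) and by -0.17 without replicate 40. *Prp5* differed by -0.60 (SE 0.42, adjusted p = 0.626) and was lower in diapausing females on all 3 slides, by -0.40, -1.15 and -0.24. *nonA* (-0.17, -0.23 and -1.39) and *Adar* (-0.02, -1.06 and -0.04) were also lower on all 3 slides. The -1.39 of *nonA* was on the slide of reproducing replicate 40. How many of all genes kept 1 direction on all 3 slides was not counted in any comparison. *Adar* differed by -0.37 (SE 0.35, adjusted p = 0.675), and *Fmr1* by -0.06 (SE 0.23, adjusted p = 0.883).

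**Figure D3:**
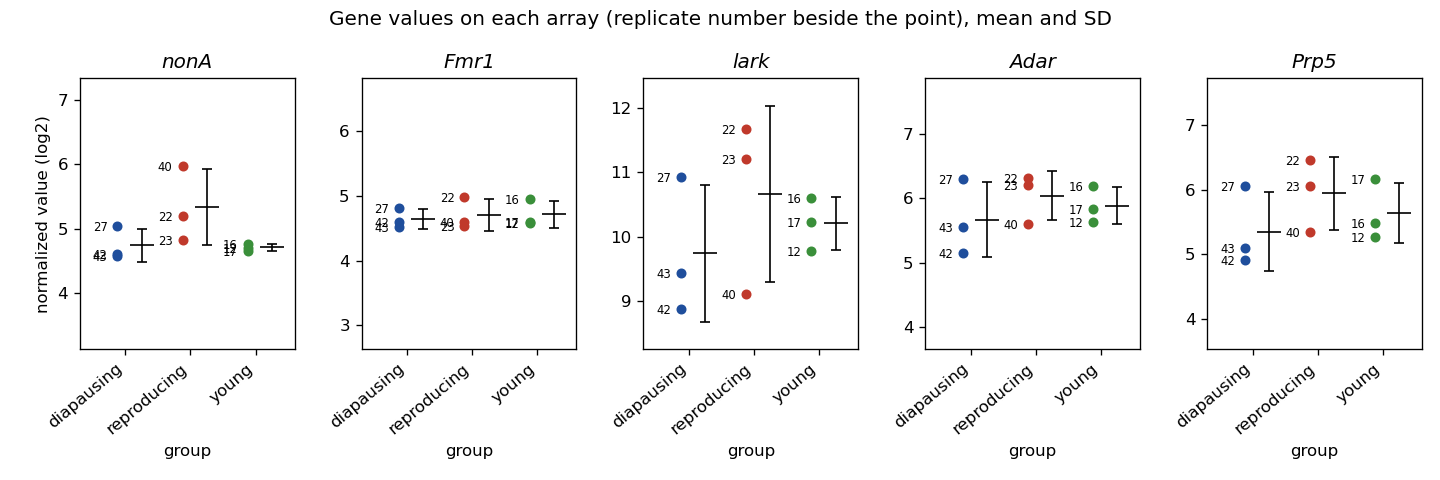
Normalized log2 value of each gene on each array (points, with the replicate number), and the mean and SD of each group (n = 3, black). Each panel spans 4.2 log2 units. In lark, reproducing replicates 22 and 23 lie at 11.67 and 11.21 and replicate 40 at 9.12, and in nonA replicate 40 lies at 5.97.

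*nonA* was near background on most arrays, and its highest value came mostly from a single reading. The normalized log2 level was 5.20, 4.83 and 5.97 in reproducing replicates 22, 23 and 40 and 5.03, 4.60 and 4.58 in diapausing replicates 27, 42 and 43. Young replicates 12, 16 and 17 were at 4.70, 4.77 and 4.66, all below the lowest reproducing array. The high value of replicate 40 came mostly from nonA-c, whose mean signal was 245 there and 53.5 to 80.7 on the other 8 arrays. In the deposited table the value of nonA-c on that array was 19, within the 9 to 30 of the other arrays. The mean signals of the other probes of *nonA* on it were 65.9 for nonA-a and 78.1 for nonA-b. After normalization nonA-b was at 5.40 there, below only the 5.46 of reproducing replicate 22, though not marked well above background. Between diapausing and reproducing females nonA-a and nonA-b were fitted at -0.26 and -0.48, beside -1.05 for nonA-c.

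*Fmr1* was at or near background throughout. Its normalized log2 level was 4.64 ± 0.15 in diapausing, 4.70 ± 0.25 in reproducing and 4.72 ± 0.21 in young females (SD, n = 3). The values were 4.82, 4.59 and 4.52 in diapausing replicates 27, 42 and 43 and 4.99, 4.53 and 4.59 in reproducing replicates 22, 23 and 40. In young replicates 12, 16 and 17 they were 4.59, 4.96 and 4.60. On 3 of 3 diapausing arrays no probe of *Fmr1* was well above background, so that its level there is only a bound. No fold change over 1 could be set against that bound.

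The probes of *Adar* differed in whether they measured anything. The mean signal of Adar-a was 359, 309 and 180 in reproducing replicates 22, 23 and 40. It was 224, 111 and 141 in diapausing replicates 27, 42 and 43 and 130, 170 and 143 in young replicates 12, 16 and 17. All reproducing arrays lay above the young ones before normalization, and replicate 40 lay below diapausing replicate 27. After normalization the reproducing arrays overlapped with both other groups. Adar-b was well above background on 0 of 9 arrays, and the gene value averages both probes. For Adar-a alone the log2 fold change of diapausing against reproducing females was -1.12 (SE 0.54, limma adjusted p = 0.589 over 204 probes), and for Adar-b it was 0.37 (SE 0.24). As a gene, *Adar* was at 5.67 ± 0.58 in diapausing, 6.04 ± 0.38 in reproducing and 5.89 ± 0.29 in young females (SD, n = 3).

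*Prp5* was dim but measurable, and its probes did not all follow each other. Mean signals of Prp5-d were 190, 138 and 107 in reproducing replicates 22, 23 and 40. They were 123, 88.7 and 87.0 in diapausing replicates 27, 42 and 43, and 87.0, 80.9 and 80.5 in young replicates 12, 16 and 17, so that reproducing and young females did not overlap. Prp5-b gave 151, 119 and 103 in the reproducing replicates, and 79.0, 78.9 and 87.6 in the young ones. In Prp5-c the reproducing arrays, at 126, 141 and 62.9, held both the highest and the lowest signal of all 9. The lowest was that of replicate 40, for which the deposited table gave 224, the highest of its 9 values for this probe. Prp5-a read 184 on young replicate 17 and 52.5 to 118 on the other 8 arrays. The table gave 716 for the same spot. Prp5-b, which shares 38 bases with it, read 87.6 on that array, within its range elsewhere.

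Tested one by one, 0 of the 14 probes were called between diapausing and reproducing females (limma, 3 of 204 in all, 1.47%). The fitted level was lower in diapausing females for 11 of 14 probes and for 54.9% of all probes. Prp5-b had the lowest adjusted p of the 14, at -0.98 on the log2 scale (SE 0.36, adjusted p = 0.445) and no overlap between the groups after normalization. Prp5-d followed with -0.95 (SE 0.41, adjusted p = 0.548). The groups did not overlap for 3 of the 14 probes (12.7% of all probes). Besides Prp5-b these were Fmr1-a and Adar-b, both well above background on 0 of 9 arrays. Without diapausing replicate 27, Prp5-b passed both thresholds, with -1.23 (limma adjusted p = 0.0489). It was 1 of 14 probes called there, beside 16 of 204 in all (7.84%).

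The second comparison set diapausing females against young ones. limma called 0 of the 5 genes, against 3 in all (2.78%), and at an unadjusted p under 0.05 the counts were 0 and 11 (10.2%). The groups overlapped for all 5, and did not for 17.6% of all genes. The log2 fold change was -0.46 for *lark* (SE 0.72, adjusted p = 0.783), -0.29 for *Prp5* (SE 0.42, adjusted p = 0.783) and -0.22 for *Adar* (SE 0.35, adjusted p = 0.783). It was -0.07 for *Fmr1* and 0.03 for *nonA*, with adjusted p of 0.850 and 0.950 (both limma). The median of all genes in this comparison was -0.38, and 77.8% of all genes had a lower fitted level in diapausing females, as did 4 of the 5. Within slides the sign of all 5 genes changed, with *lark* at 1.14, -1.73 and -0.79. Of the 14 probes 0 were called (5 of 204, 2.45%), 11 were fitted lower in diapausing females (75.5% of all probes), and for 0 of them the groups did not overlap (18.6% of all probes).

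The third comparison set reproducing against young females. limma called 0 of the 5 genes, against 9 in all (8.33%), and at an unadjusted p under 0.05 the counts were 0 and 26 (24.1%). The fitted level was lower in reproducing females for 1 of the 5 and for 63.9% of all genes. *nonA* had the lowest adjusted p of the 5, at 0.63 on the log2 scale (SE 0.31, adjusted p = 0.299), higher in reproducing females on all 3 slides, and was the 1 gene of 5 whose groups did not overlap (30.6% of all genes). It was well above background on 0 of 3 young arrays, and against the bound of those arrays the mean of the reproducing arrays was at least 1.25-fold higher. This bound rested on reproducing replicate 40, since the mean of the other reproducing arrays, 5.02, did not exceed the bound of the young arrays, also 5.02, and no fold change was left. With that array left out of the fit the log2 fold change was 0.21. The values of the others were 0.46 for *lark* (SE 0.72, adjusted p = 0.754), 0.31 for *Prp5*, 0.15 for *Adar* and -0.01 for *Fmr1*, the last 3 with adjusted p of 0.746, 0.839 and 0.986.

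Among the probes, 0 of 14 were called in the third comparison (9 of 204, 4.41%), and 4 of 14 had a lower fitted level in reproducing females (61.8% of all probes). The groups did not overlap for 4 of the 14 (28.4% of all probes). Prp5-d was higher in reproducing females by 1.02 on the log2 scale (SE 0.41, adjusted p = 0.231) and Prp5-b by 0.77 (SE 0.36, adjusted p = 0.299). The others were nonA-c, at 1.42 with the reading of replicate 40 described above, and Adar-b. The latter was lower in reproducing females, at -0.55 (SE 0.24), and was well above background on 0 of 9 arrays. The 3 comparisons share their groups of arrays pairwise, so that they are not independent of each other.

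**Figure D4:**
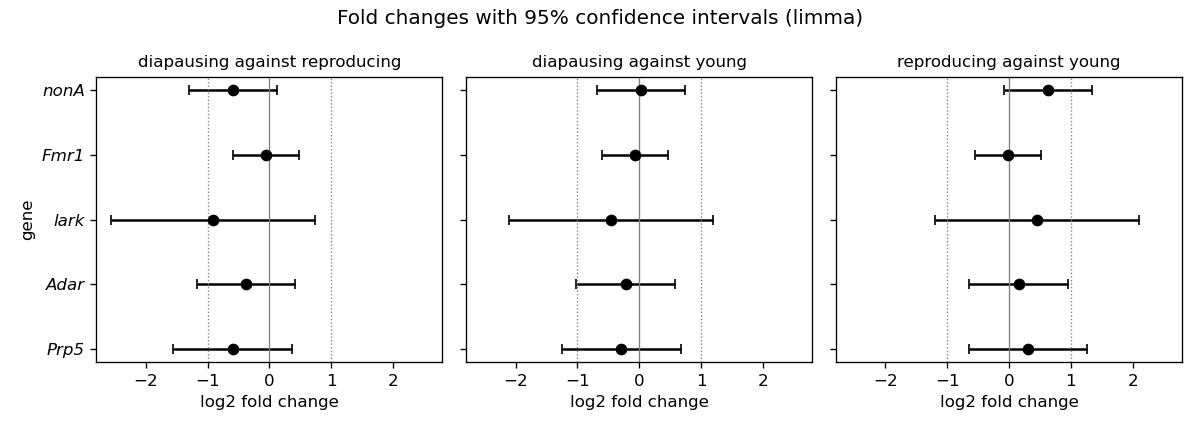
Log2 fold change of each gene in the 3 comparisons, with 95% confidence intervals from limma (n = 3 arrays per group). Dotted lines mark a fold change of 2. All 15 intervals include 0, and that of lark in diapausing against reproducing females runs from -2.57 to 0.74.

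The calls of *lark* in the third comparison depended on how the arrays were scaled. With each array of the processed signal brought to a common 75th percentile, *lark* was higher in reproducing than in young females by 1.06 on the log2 scale (limma adjusted p = 0.0362). With the normexp correction and quantile normalization the value was 1.23 (adjusted p = 0.00930), and with the deposited table scaled to the 75th percentile, an alternative chosen after seeing the data, it was 1.13 (adjusted p = 0.0210). Under these settings, in that order, 13, 8 and 10 genes of the array were called higher in reproducing females. Those called lower were 9, 6 and 8, where the main fit called 2 higher and 7 lower. With normexp and 75th percentile scaling the value was 0.87 and was not called (adjusted p = 0.0855). All these settings set the arrays to a common level over the experimental probes, which VSN as used here did not. Under the same 75th percentile scaling of the processed signal Prp5-d, Prp5-b, lark-a and Adar-a passed the test as probes, by 1.69, 1.63, 1.15 and 1.31 (adjusted p = 0.00589, 0.0194, 0.0307 and 0.0278). These were 4 of 14 probes, beside 33 of 204 probes in all (16.2%) under that scaling, where the log2 fold change over all genes had a median of 0.12 in place of -0.14. Relative to the median of all genes on its own array, *lark* was at 4.12 ± 0.74 in reproducing, 3.49 ± 0.40 in diapausing and 3.39 ± 0.14 in young females (SD, n = 3). On this scale too the groups overlapped through reproducing replicate 40, which was at 3.30 against 4.72 and 4.34 for replicates 22 and 23.

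The SD of *Adar* fell in all 3 groups once the level of the array was taken away, and that of *Prp5* in diapausing (from 0.61 to 0.06) and reproducing females (from 0.56 to 0.19), but not in young ones (0.47 and 0.48). Relative to the array median *Adar* was at -0.73, -0.61 and -0.42 in diapausing replicates 27, 42 and 43 and at -0.64, -0.65 and -0.21 in reproducing replicates 22, 23 and 40. The young replicates 12, 16 and 17, at -0.92, -0.89 and -0.99, lay below all others. On this scale the groups did not overlap for 23.1% of all genes between diapausing and young females, nor for 35.2% between reproducing and young females. The *Adar* value also averages in Adar-b, which was well above background on 0 of 9 arrays. *nonA* and *Fmr1*, both near background, had larger mean differences between diapausing and young females here, 0.60 and 0.49 beside 0.35 for *Adar*, though their groups overlapped. *Prp5* was at -0.97, -0.86 and -0.89 in the diapausing and at -0.50, -0.82 and -0.48 in the reproducing replicates, without overlap, which held for 24.1% of all genes. In the young ones it was at -1.29, -1.61 and -0.66, the last being the array of the high Prp5-a reading. These values are descriptions and were not tested on this scale.

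**Figure D5:**
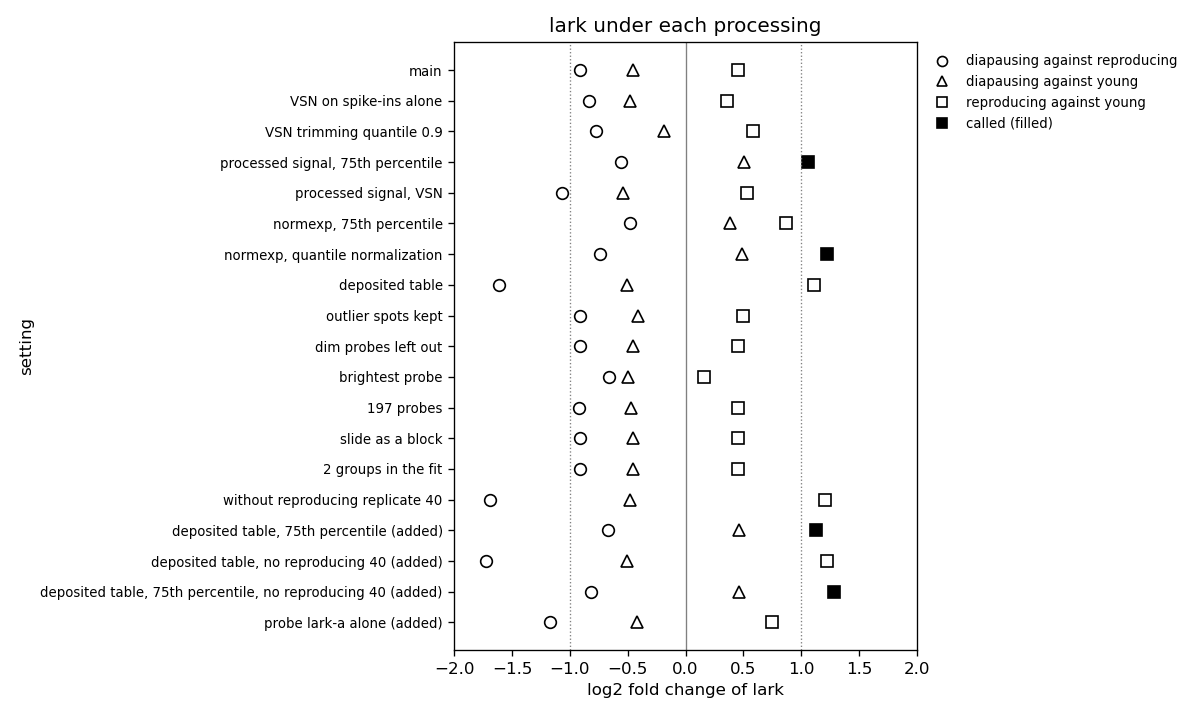
Log2 fold change of lark in the 3 comparisons (symbols) under each processing (rows), with filled symbols where it was called (adjusted p under 0.05 with over 2-fold change, dotted lines). The 4 filled symbols, at 1.06 to 1.28, are all for reproducing against young females, and diapausing against reproducing females stayed below 0 in every row, between -1.72 and -0.48.

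Other genes of RNA handling on the array were *cpo*, *mle*, *hang*, *eIF-4a*, *Cdk9* and *PEK*. Of these 6, limma called 1 as lower in reproducing than in young females and 0 in the other comparisons. The gene called was *cpo*, which codes for an RNA-binding protein with a role in diapause in *D. melanogaster*, which differed by -1.50 on the log2 scale (SE 0.25, adjusted p = 0.00929). In diapausing against reproducing females its value was 0.61 (adjusted p = 0.468) and against young females -0.89 (adjusted p = 0.104), with no overlap of groups in either comparison. *Cdk9*, a kinase that releases paused RNA polymerase, differed by 0.54 between reproducing and young females (adjusted p = 0.629). *mle*, an RNA helicase of dosage compensation, differed by -0.51 (adjusted p = 0.754). The median over the 6 genes was -0.23 in diapausing against reproducing females, -0.27 in diapausing against young and 0.05 in reproducing against young, beside -0.02, -0.38 and -0.14 over all genes.

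Among genes whose transcripts Adar edits in *D. melanogaster*, the array held *cac*, *para*, *Sh*, *slo* and *syt*. limma called 1 of the 5, *slo*, a calcium-activated potassium channel, as lower in diapausing than in young females (-1.67 on the log2 scale, SE 0.29, adjusted p = 0.0316) and lower in reproducing than in young females (-1.95, SE 0.29, adjusted p = 0.00929). None of the 5 was called between diapausing and reproducing females, where *slo* was at 0.28 (adjusted p = 0.696). *syt*, the calcium sensor of synaptic vesicles, was well above background on 0 of 9 arrays. *cac*, a calcium channel subunit, differed by -0.47 at most (diapausing against young, adjusted p = 0.481). The arrays measure the level of these transcripts and not their editing. In *Adar* itself the values between reproducing and young females were 0.15 as a gene and 0.86 for Adar-a (SE 0.54, adjusted p = 0.421).

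The genes nearest in pattern were sought among those with a probe well above background on at least 6 of 9 arrays, by the root mean square difference of centred log2 values over the 9 arrays. For *lark* they were *CkIIalfa* (0.29), *Hsc70Cb* (0.30) and *CrebB17A* (0.33), where the SD of *lark* itself was 0.97. For *Adar* they were *eIF-4a* (0.14), *PEK* (0.17) and *dco* (0.20), with an SD of 0.41. For *Prp5* they were *CG4049* (0.24), *PEK* (0.24) and *CrebB17A* (0.27), with an SD of 0.54. *nonA* had no near neighbour, since its nearest gene, *Ef1alfa48D*, differed by 0.37 and *Sh* and *sgg* by 0.39 and 0.40, beside an SD of 0.44. For *Fmr1*, *dsf*, *per* and *sgg* differed by 0.16 to 0.18 beside an SD of 0.18, so that likeness could not be told from a flat pattern. The values of different genes share the arrays and their overall level, and likeness is given as a description.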

How the data were processed

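RNA of 3 samples each of diapausing, reproducing and young females was hybridized to one-colour Agilent arrays. The authors deposited the scanner output, with intensity values from Feature Extraction (9.5.1.1 as the version of grid placement in the file headers), namely the mean signal, the local background and a background-subtracted processed signal, none scaled between arrays. A deposited table of intensity values for 197 probes was used as an alternative only. On 8 arrays it follows the processed signal, and its normalization was not settled here. Groups and replicate numbers were read from the sample titles. Whether replicates came from separate cultures is not given in the sources used here, so p-values measure the spread between these samples.

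Outlier spots were left out, and copies of a probe were averaged. VSN was written anew in R 4.3.3 and fitted on the mean signal of experimental and spike-in probes (trimming quantile 0.5, 5 slices, 7 rounds). All 204 probes of the candidate and control genes were used. On this scale fold changes of dim probes are understated. Probes of a gene were averaged, and limma 3.58.1 (statmod 1.5.0) was fitted to all 9 arrays together. p-values were adjusted by Benjamini-Hochberg across all genes or, for single probes, across 204 probes. A gene was called when its adjusted p lay under 0.05 and it changed over 2-fold. A gene with no probe well above background in a whole group has only a bound there. For a fold change of at least a given size, each such array was set to the higher of its own value and the lowest value that any probe marked well above background had there. The procedure was tested on simulated data. Precision is limited by the 3 arrays in each group.

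The genes named are the 5 genes with all their probes, up to 3 genes each of a list of other RNA handling genes and a list of transcripts edited by Adar (those with the largest absolute log2 fold change in any comparison), and the 3 genes nearest in pattern. These genes, lists and tests were chosen with earlier results of these data known. All 5 symbols matched the RefSeq gene table of *D. montana*. Its genome sequence was not used here, so the probes were not placed on chromosomes. Alternatives were VSN on spike-ins alone or with a quantile of 0.9, the processed signal scaled to the 75th percentile or put into VSN, normexp (offset 50) with the same percentile scaling or with quantile normalization, the table as deposited, all outlier spots included, probes dim on all arrays dropped, 1 probe (the brightest) per gene, the 197 probes, a block for the slide, fits restricted to 2 groups, no fold change minimum, and each array left out. The table scaled to the 75th percentile, the table without reproducing replicate 40 with either scaling, and lark-a alone were added after seeing the data. Python 3.11.15 with matplotlib 3.10.9 drew the figures.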

Additional observations from a re-analysis of the deposited data

How the results depend on the processing

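Signal over background limited most of these measurements, since 8 of the 14 probes were well above background on 4 arrays or fewer. The comparisons below are diapausing against reproducing (the first), diapausing against young (the second) and reproducing against young (the third), in which limma called 1, 3 and 9 genes of the array and 0 of the 5 genes described. Over the 27 alternatives, 331 of 393 log2 fold changes of the 5 genes kept their direction and, as in the main fit, were not called. Such a value could still cross a single threshold. Of the rest, 58 changed sign (27 of them for *Fmr1*) and 4 came to be called, all 4 for *lark* in the third comparison. The cause of these changes was not tested. Slide as a block, fits of 2 groups and no fold change minimum could not alter a log2 fold change, only a call. In the second comparison the table gave the same fold changes with and without reproducing replicate 40, and both were counted. The count of values that kept their direction is therefore not one of independent checks. No paired analysis by replicate number was possible because the groups shared no numbers. Each slide held 1 array of every group, and with slide as a block 0 of the 5 genes were called in any comparison. The position of an array on its slide was the same for all arrays of a group, so that position and group cannot be told apart.

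Counts of genes called over the whole array moved most with the scaling. In the order of comparisons they were 0, 0 and 8 with VSN fitted to the spike-ins only, and 1, 5 and 14 at a trimming quantile of 0.9. They were 10, 8 and 22 with the processed signal at 75th percentile scaling, 5, 2 and 11 with normexp at that scaling, and 4, 0 and 14 with normexp and quantile normalization. The deposited table gave 1, 6 and 8 as it stands, 14, 16 and 18 at 75th percentile scaling, and, without reproducing replicate 40, 0, 3 and 4 as it stands and 12, 18 and 19 scaled. Dim probes left out gave 0, 2 and 9, the brightest probe 2, 5 and 9, slide as a block 0, 0 and 8, and fits of only 2 groups 0, 0 and 5. With the processed signal at 75th percentile scaling, 70.0%, 87.5% and 59.1% of the calls were higher in the first group named, against 100%, 33.3% and 22.2%, and the log2 fold change over all genes had a median of 0.28, 0.34 and 0.12, against -0.02, -0.38 and -0.14.

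Of the 5 genes, 1 (*lark*) was called in the third comparison with the processed signal at 75th percentile scaling (1.06), with normexp and quantile normalization (1.23), and with the scaled table with (1.13) and without (1.28) reproducing replicate 40. The limma adjusted p reached 0.0141 for *Adar* in the third comparison and 0.0427 for *nonA* in the second. Both stayed under a 2-fold change in every alternative and were not called. Of the 14 probes, 4, 2, 1, 5 and 5 were called in the third comparison with the processed signal at 75th percentile scaling, normexp at that scaling, normexp with quantile normalization, and the scaled table with and without that replicate. Over all probes the counts under these settings were 33 (16.2%), 23 (11.3%) and 20 (9.80%) of 204 probes and 31 (15.7%) and 28 (14.2%) of the 197 of the table, against 9 of 204 (4.41%) as reported. In the first comparison 1 (lark-a) was called with normexp and quantile normalization, beside 11 of 204 (5.39%).

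Changes of sign in the first comparison were as follows. With the processed signal at 75th percentile scaling *Adar* was at 0.013. *Fmr1* was at 0.24 with normexp at 75th percentile scaling, 0.10 with outlier spots kept and 0.14 without dim probes. The scaled table gave 0.35 for *nonA*, 0.35 for *Fmr1* and 0.15 for *Adar*, and without replicate 40 it gave 0.077 for *nonA* and 0.18 for *Adar*.

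In the second comparison *nonA* was at -0.061 with VSN on spike-ins, -0.0037 with normexp and quantile normalization, -0.10 with the unscaled table with or without replicate 40, -0.019 with outlier spots kept and -0.13 with the brightest probe. *Fmr1*, *lark*, *Adar* and *Prp5* were at 0.41, 0.50, 0.70 and 0.23 with the processed signal at 75th percentile scaling. They were at 0.39, 0.39, 0.45 and 0.37 with normexp at that scaling, and at 0.67, 0.46, 0.77 and 0.31 with the scaled table, with or without replicate 40. With normexp and quantile normalization *lark* was at 0.49 and *Adar* at 0.086, and without dim probes *Fmr1* was at 0.032.

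In the third comparison *Fmr1* turned positive, with 0.030 (trimming quantile of 0.9), 0.87 (processed signal at 75th percentile scaling), 0.24 (processed signal in VSN), 0.15 (normexp at 75th percentile scaling), 0.029 (normexp and quantile normalization), 0.30 (table), 0.18 (brightest probe), 0.0056 (197 probes), 0.32 (scaled table), and 0.65 and 0.71 for the unscaled and scaled table without replicate 40. *Prp5* was at -0.28 with the brightest probe.

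With each array left out in turn, 0 to 6, 0 to 6 and 0 to 12 genes of the array were called in the 3 comparisons. For the first the count was 6 without diapausing replicate 27, 1 without reproducing replicate 22 and 0 without any of the other arrays. For the second it was 6 without reproducing replicate 40, 1 without diapausing replicate 42, and 0 without diapausing 43, reproducing 23, young 16 or young 17. For the third it was 4 without reproducing 40, 2 without reproducing 23, and 0 without young 16 or young 17. Between 0 and 1 of the 14 probes were called in the first comparison (Prp5-b, without diapausing replicate 27, beside 16 of 204 probes in all, 7.84%). The log2 fold change of *Fmr1* ranged from -0.24 to 0.053, from -0.15 to 0.085 and from -0.16 to 0.19 in the 3 comparisons. In the first comparison *lark* ranged from -1.69 (without reproducing replicate 40) to -0.37 (without reproducing 22), *nonA* from -0.93 (without reproducing 23) to -0.17 (without reproducing 40), *Adar* from -0.64 (without diapausing 27) to -0.10 (without diapausing 42) and *Prp5* from -0.88 to -0.34 (without the same 2 arrays). In the second comparison *nonA* ranged from -0.11 to 0.12, *Adar* from -0.51 to 0.042 and *Prp5* from -0.61 to 0.011. In the last one *lark* ranged from -0.083 (without reproducing replicate 22) to 1.21 (without reproducing replicate 40) and *Adar* from -0.029 to 0.42.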
